A study of Mus musculus with 9 samples.

Results

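Sertoli cells, the somatic cells that line the seminiferous tubules and nurse the germ cells, read the pituitary hormone FSH through a receptor on their surface and answer with hormones and growth factors of their own. The genes described here are 8 of the 32035 genes to which the deposited transcripts could be assigned, chosen by name as the FSH receptor (Fshr), anti-Müllerian hormone and its receptor (Amh, Amhr2), the inhibin and activin subunits (Inha, Inhba, Inhbb), and the growth factors that Sertoli cells supply to spermatogonia (Gdnf, Kitl). They were measured in whole testes of 15-week-old C57Bl6/N mice, 3 of them wildtype (WT), 3 homozygous for a deletion of exon 2 of Kpna6 (labelled a7_dIBB, here ΔIBB/ΔIBB) and 3 homozygous for a gene trap in intron 1 of Kpna6 (labelled a7_minus_minus, here Kpna6-/-). Kpna6 encodes importin α7, an adaptor that carries proteins into the nucleus. The ΔIBB allele leaves a shortened protein without the domain that binds importin β, and the allele is carried by every cell of the mouse. The gene trap removes the protein elsewhere, but according to the study's description of the alleles a start site used in the testis lies behind the trap, so that germ cells of Kpna6-/- mice still make full-length importin α7. The comparisons ask how the Sertoli cell hormone genes stood in 2 kinds of mutant testis. One lacks the full-length protein, and the other keeps it in germ cells.

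FSH binding to its receptor activates the stimulatory G protein, adenylate cyclase and protein kinase A. Inhibin, a dimer of the α subunit with a β subunit, travels to the pituitary and lowers FSH release, whereas dimers of β subunits alone are activins, which act through SMAD2 and SMAD3. AMH signals through AMHR2 and the SMAD1, SMAD5 and SMAD9 arm, is abundant in immature Sertoli cells and is low in the adult testis. GDNF acts on the RET and GFRA1 receptor of undifferentiated spermatogonia, and KIT ligand, made from Kitl, acts on the KIT receptor of differentiating spermatogonia.

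The libraries held between 24973189 and 31629697 estimated counts each. In ΔIBB/ΔIBB testes Kpna6 had 81.2, 85.3 and 81.8 normalized CPM (counts relative to the library total, after scaling between libraries), against 201.2, 324.6 and 333.6 in WT and 247.1, 248.8 and 261.9 in Kpna6-/- testes. The ΔIBB/ΔIBB samples thus lay below all others, and WT replicate 1 lay apart from the other WT samples. Kpna6 had a log2 fold change of -1.79 in ΔIBB/ΔIBB against WT (adjusted P = 1.94e-05, edgeR quasi-likelihood test with Benjamini-Hochberg adjustment, as for every adjusted P below unless another test is named) and -0.18 in Kpna6-/- against WT (adjusted P = 0.586). The gene total is not a check of the trap, because transcripts that start behind it count towards the gene. ΔIBB/ΔIBB replicate 3 held 77.0 TPM of Crisp1 and 81.3 TPM of Spink8, genes of the epididymis, whereas no other sample exceeded 4.23 and 10.7 TPM, and Lcn5, another epididymal gene, was listed at 0 in all samples. The counts of hormone and pathway genes called in ΔIBB/ΔIBB testes were therefore also taken without that sample.

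Of the 8 genes, 6 rose in ΔIBB/ΔIBB testes. Amh rose the most, 3.44-fold, followed by Fshr at 2.54-fold, Inha at 2.32-fold, Amhr2 at 1.77-fold, Inhbb at 1.51-fold and Kitl at 1.31-fold. In Kpna6-/- testes Amhr2 and Inha rose, by 1.34-fold and 1.53-fold, and no other member passed the test. Gdnf passed it in no comparison, and Inhba was too low to be tested. In ΔIBB/ΔIBB against WT the 6 genes stand against a background in which 36.6% of 18797 genes tested passed an adjusted P of 0.05 in either direction and 17.7% were higher. In Kpna6-/- against WT the 2 genes of 7 tested stand against 1.6% of 18681 genes in either direction and 0.889% higher. The median log2 fold change of the 7 genes tested was 0.83 in ΔIBB/ΔIBB and 0.29 in Kpna6-/- testes, where the medians over all genes tested were 0.009 and 0.002.

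**Figure D1:**
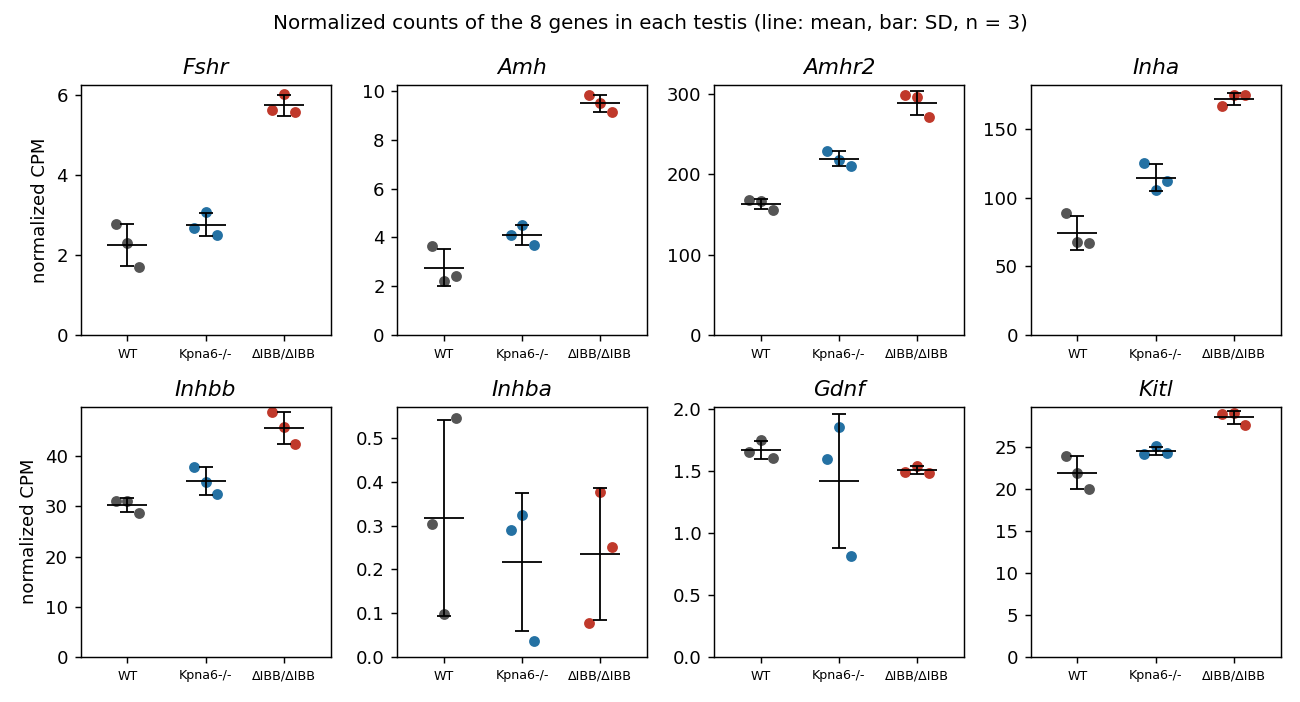
Normalized CPM (vertical axes, each starting at 0) of the 8 genes in each of the 9 testes, with points for samples, lines for group means and bars for the SD (n = 3). For Fshr, Amh, Amhr2, Inha, Inhbb and Kitl the 3 ΔIBB/ΔIBB samples lie above all 6 others, and for Inhba and Gdnf they do not. The share of all genes that separate in this way was not counted.

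Because 6 of the members rose together in ΔIBB/ΔIBB testes, the promoters that RefSeq gives for the members on GRCm38.p6 were read, from 250 bases before to 50 bases after the transcription start. There were 8 such entries for 7 of the genes and none for Amh. They were searched on both strands for CACGTG, the E-box bound by USF factors, for AAGGTCA, the core of the site bound by SF-1 (the product of Nr5a1), and for TGACGTCA, the full cAMP response element. CACGTG was found in 7.15%, AAGGTCA in 4.72% and TGACGTCA in 1.79% of all 32851 promoters of this length. Among the 8 entries only that of Fshr held CACGTG, starting 61 bases before the start site, and only that of Amhr2 held AAGGTCA, starting 231 bases before it. Neither was shown here to be bound, and the other 6 entries, those of Inha, Inhba, Inhbb, Kitl and 2 of Gdnf, held none of these letters. The start site that RefSeq gives lies 532 bases inside the annotated gene for Inha, 191 bases inside it for Kitl, and at -798 and 2881 bases from its 5′ end for the 2 entries of Gdnf, so the windows of Inha and Gdnf do not cover the start of the gene as annotated. The promoters with a match are printed in the direction of transcription, with the match in capitals, from chr17:89200626-89200925 (minus strand) for Fshr and chr15:102445117-102445416 (plus strand) for Amhr2.
Fshr promoter: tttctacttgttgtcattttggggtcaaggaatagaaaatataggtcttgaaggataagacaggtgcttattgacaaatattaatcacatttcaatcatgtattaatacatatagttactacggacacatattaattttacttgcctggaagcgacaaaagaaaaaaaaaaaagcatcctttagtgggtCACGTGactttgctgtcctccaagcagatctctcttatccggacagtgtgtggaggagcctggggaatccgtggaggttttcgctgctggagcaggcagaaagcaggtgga
Amhr2 promoter: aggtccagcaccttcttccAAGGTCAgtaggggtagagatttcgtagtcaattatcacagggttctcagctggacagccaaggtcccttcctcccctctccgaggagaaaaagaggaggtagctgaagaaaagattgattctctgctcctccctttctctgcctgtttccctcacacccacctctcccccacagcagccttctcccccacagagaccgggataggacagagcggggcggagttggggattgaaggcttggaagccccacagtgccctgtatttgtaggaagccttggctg

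Fshr (ENSMUSG00000032937.5) spans bases 88984952 to 89200675 on the minus strand of chromosome 17 of GRCm38 and encodes the receptor by which Sertoli cells sense FSH. It had 2.77, 2.31 and 1.71 normalized CPM in WT testes and 5.63, 6.04 and 5.57 in ΔIBB/ΔIBB testes. In Kpna6-/- testes it had 2.68, 3.08 and 2.51 normalized CPM. All ΔIBB/ΔIBB samples lay above the others, and the WT and Kpna6-/- samples overlapped. Relative to WT, the log2 fold change of Fshr was 1.35 (95% interval 0.98 to 1.71, adjusted P = 0.000149) in ΔIBB/ΔIBB and 0.29 (-0.14 to 0.71, adjusted P = 0.554) in Kpna6-/- testes. The count behind these values was small, from 47 to 192 estimated counts per sample, and the interval in Kpna6-/- mice leaves room for a rise of up to 0.71.

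Amh (ENSMUSG00000035262.5, chromosome 10, 80805243 to 80807648, plus strand) encodes the hormone that regresses the Müllerian ducts in the male fetus. WT testes had 3.64, 2.21 and 2.44 normalized CPM, with the highest value again in replicate 1. ΔIBB/ΔIBB testes had 9.84, 9.50 and 9.13, and Kpna6-/- testes 4.09, 4.51 and 3.70. The 3 groups did not overlap, although the lowest Kpna6-/- sample lay only slightly above the highest WT sample. On the log2 scale Amh was higher by 1.78 (95% interval 1.42 to 2.15, adjusted P = 2.82e-05) in ΔIBB/ΔIBB, and its estimated difference was 0.57 (0.16 to 0.98, adjusted P = 0.177) in Kpna6-/-, both against WT. Without WT replicate 1 the latter was 0.82 with an adjusted P of 0.0248, so that 1 sample decided on which side of the threshold Amh lay in Kpna6-/- testes.

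Amhr2 (ENSMUSG00000023047.11, chromosome 15, 102445367 to 102454633, plus strand), the type II receptor that is specific for AMH, was the most abundant of the 8 genes per transcript length. It had 167.5, 166.3 and 155.4 normalized CPM in WT, 228.7, 218.0 and 210.7 in Kpna6-/- and 298.2, 295.8 and 270.6 in ΔIBB/ΔIBB testes. The groups stood apart in that order without overlap. Against WT the log2 fold change was 0.83 (95% interval 0.72 to 0.93, adjusted P = 6.61e-06) in ΔIBB/ΔIBB and 0.43 (0.33 to 0.52, adjusted P = 0.000489) in Kpna6-/- testes. Amhr2-202, a transcript with a retained intron, had 5.81 to 7.22 TPM in WT and 12.2 to 18.6 TPM in ΔIBB/ΔIBB testes, and the coding transcript Amhr2-201 had 113.2 to 118.5 and 208.7 to 233.7 TPM. Amhr2-202 is only 364 bases long, and its values rest on 13.8 to 16.3 estimated counts per WT sample and 23.7 to 44.9 per ΔIBB/ΔIBB sample. AMHR2 is also made by Leydig cells, and of 8 Leydig cell markers 2, Lhcgr and Hsd3b1, rose in ΔIBB/ΔIBB testes, with a list median of 0.01 on the log2 scale. The summed TPM of that list ranged from 1979 to 2840 in ΔIBB/ΔIBB and from 1985 to 3019 in WT testes. Most of it was Insl3, with 1599 to 2437 and 1778 to 2571 TPM, so the sum says little about the other markers. The part of the list in the Amhr2 result was not tested.

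Inha (ENSMUSG00000032968.4, chromosome 1, 75507077 to 75510366, plus strand) encodes the α subunit that defines inhibin. WT testes had 88.8, 67.8 and 67.0 normalized CPM, Kpna6-/- testes 125.4, 106.0 and 112.2, and ΔIBB/ΔIBB testes 167.2, 174.8 and 174.6. The groups did not overlap, and among the WT samples replicate 1 was the highest. Inha rose by 1.21 (95% interval 1.01 to 1.41, adjusted P = 1.39e-05) in ΔIBB/ΔIBB and by 0.62 (0.41 to 0.83, adjusted P = 0.00643) in Kpna6-/- testes on the log2 scale. The call in Kpna6-/- testes was lost without Kpna6-/- replicate 1, where the log2 fold change was 0.55 and the adjusted P 0.053. It was also lost in limma on log2(TPM + 1), with an adjusted P of 0.128.

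Inhbb (ENSMUSG00000037035.5, chromosome 1, 119415465 to 119422248, minus strand) encodes the βB subunit of inhibin B, the circulating inhibin of males. It had 31.1, 31.1 and 28.6 normalized CPM in WT, 37.9, 34.8 and 32.4 in Kpna6-/- and 48.8, 45.8 and 42.4 in ΔIBB/ΔIBB testes. Every Kpna6-/- sample lay above every WT sample and below every ΔIBB/ΔIBB sample. For Inhbb the log2 fold change was 0.60 (95% interval 0.45 to 0.74, adjusted P = 7.28e-05) in ΔIBB/ΔIBB and 0.21 (0.06 to 0.36, adjusted P = 0.165) in Kpna6-/- against WT.

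Inhba (ENSMUSG00000041324.14, chromosome 13, 16011851 to 16031621, plus strand) encodes the βA subunit of inhibin A and activin A. It held 9, 3 and 15 estimated counts in WT, 2, 12 and 8 in ΔIBB/ΔIBB and 8, 10 and 1 in Kpna6-/- testes. The groups overlapped in every comparison, and the gene did not pass the filter on low counts. Without the filter the fitted difference from WT on the log2 scale was -0.36 (adjusted P = 0.728) in ΔIBB/ΔIBB, with a standard error of 0.64, and -0.50 (standard error 0.65, adjusted P = 0.79) in Kpna6-/- testes. No difference of Inhba was detectable at this depth. The transcript Inhba-201 measures 1957 bases in the deposited tables and 6390 bases in the annotation, so reads from the remaining 4433 bases could not be counted towards it.

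With both subunits scaled by length, the ratio of Inha to the sum of Inhba and Inhbb in TPM was 9.27, 7.20 and 7.31 in WT testes. It was 11.3, 12.3 and 13.5 in ΔIBB/ΔIBB and 10.7, 9.82 and 11.5 in Kpna6-/- testes, above every WT sample in both lines. The α transcripts outnumbered the β transcripts in each testis. The log2 ratio differed from WT by 0.65 in ΔIBB/ΔIBB and by 0.44 in Kpna6-/- testes (two-sided exact permutation test, P = 0.1 each and 0.3 after Benjamini-Hochberg adjustment over 6 ratio tests). No P below 0.1 can be reached with 3 samples in each group.

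Gdnf (ENSMUSG00000022144.4, chromosome 15, 7810846 to 7837575, plus strand) encodes the factor that maintains spermatogonial stem cells. Its normalized CPM was 1.65, 1.75 and 1.60 in WT, 1.49, 1.54 and 1.48 in ΔIBB/ΔIBB and 1.59, 1.85 and 0.81 in Kpna6-/- testes. The ΔIBB/ΔIBB samples lay just below the WT samples on this scale, whereas on the TPM scale, with 0.59 to 0.63 against 0.61 to 0.64, they overlapped. Kpna6-/- replicate 3 lay below all other samples. Against WT the log2 fold change was -0.14 (95% interval -0.56 to 0.27, adjusted P = 0.589) in ΔIBB/ΔIBB and -0.22 (-0.81 to 0.36, adjusted P = 0.761) in Kpna6-/- testes. Without Kpna6-/- replicate 3 the latter turned to 0.048.

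Kitl (ENSMUSG00000019966.18, chromosome 10, 100015630 to 100100416, plus strand) encodes KIT ligand, which supports differentiating spermatogonia. It had 23.9, 21.8 and 20.0 normalized CPM in WT, 24.2, 25.1 and 24.3 in Kpna6-/- and 28.9, 29.1 and 27.6 in ΔIBB/ΔIBB testes. The groups did not overlap, and the Kpna6-/- samples lay close above the highest WT sample. For Kitl the log2 fold change was 0.38 (95% interval 0.22 to 0.55, adjusted P = 0.00211) in ΔIBB/ΔIBB and 0.16 (0.001 to 0.32, adjusted P = 0.334) in Kpna6-/- against WT. Scaling matters for so small a difference. The mean TPM was 6.16 ± 0.34 (SD, n = 3) in WT and 9.15 ± 0.17 in ΔIBB/ΔIBB testes, and with library size as the only scaling all genes tested shifted by a median of 0.11 on the log2 scale.

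**Figure D2:**
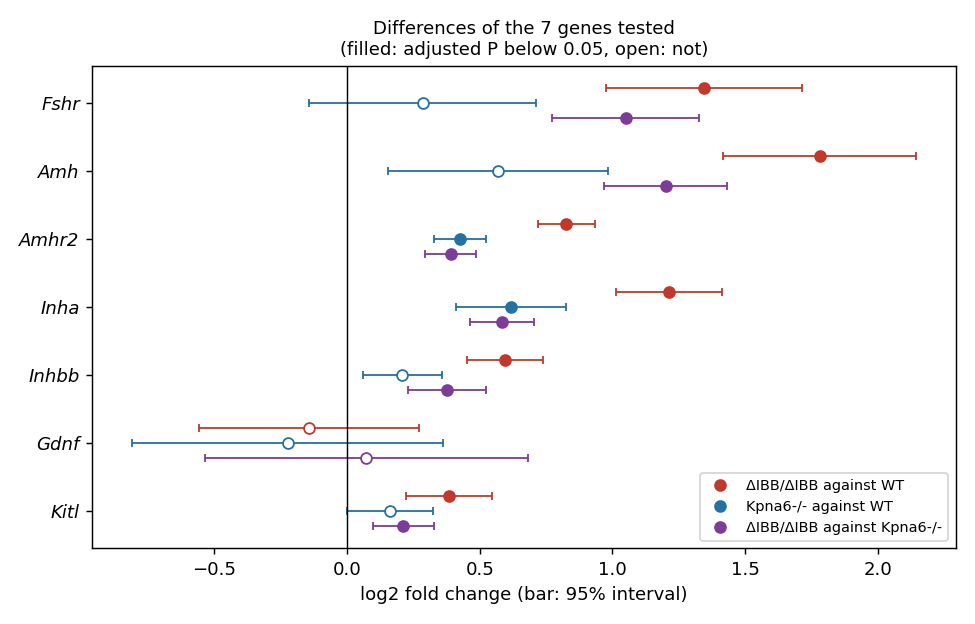
Log2 fold changes (horizontal axis) with 95% intervals of the 7 genes tested in the 3 comparisons, filled where the adjusted P was below 0.05. In ΔIBB/ΔIBB against WT 6 points are filled, from Kitl at 0.38 to Amh at 1.78, in Kpna6-/- against WT only Amhr2 and Inha are filled, and the intervals of Gdnf span 0 in all 3.

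KIT ligand exists in a form that is cut from the membrane, because an exon encodes the main cleavage site, and in a form without this exon that stays on the membrane. The exon, numbered 6 in the annotation of Kitl, lies at chr10:100080857-100080940 on the plus strand of GRCm38. It is 84 bases long, which is 28 whole codons, and it is shown because its presence separates the forms.
Kitl exon 6: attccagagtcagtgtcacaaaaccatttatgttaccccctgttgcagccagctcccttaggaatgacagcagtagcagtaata
Kitl-202 holds this exon, Kitl-201 lacks it, and Kitl-203 is an incomplete coding transcript that ends before it. Kitl-202 had 5.03, 4.53 and 4.24 TPM in WT, 6.70, 6.74 and 6.18 in ΔIBB/ΔIBB and 4.99, 5.26 and 5.11 in Kpna6-/- testes. Kitl-201 had 1.16, 1.43 and 1.56 TPM in WT, 1.39, 1.87 and 2.28 in ΔIBB/ΔIBB and 1.90, 1.69 and 0.88 in Kpna6-/- testes. The form with the exon was higher in every ΔIBB/ΔIBB sample than in any other sample, and the form without it overlapped between the groups. The share of Kitl TPM on the transcript with exon 6 was 74.6% ± 2.94 (SD, n = 3) in WT, 71.4% ± 2.35 in ΔIBB/ΔIBB and 73.9% ± 3.18 in Kpna6-/- testes. The samples of the groups overlapped, and the mean shares differed by -3.2 percentage points in ΔIBB/ΔIBB and -0.73 in Kpna6-/- against WT (two-sided exact permutation test, P = 0.3 and P = 0.5). Among complete coding transcripts the shares were 76.8%, 78.0% and 77.8%. Kitl-202 also has a much longer last exon than Kitl-201, so the assignment of reads between them did not rest on exon 6 alone.

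**Figure D3:**
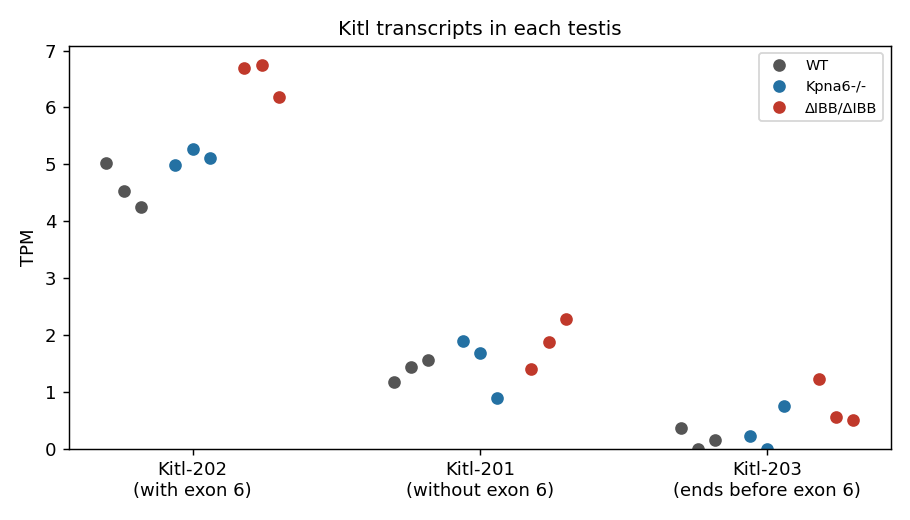
TPM (vertical axis, starting at 0) of the 3 deposited Kitl transcripts in each testis, with points for samples. Kitl-202, which holds exon 6, lies between 6.18 and 6.74 TPM in ΔIBB/ΔIBB testes and between 4.24 and 5.26 TPM in the others, Kitl-201 overlaps between the groups, and Kitl-203 reaches at most 1.23 TPM.

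Per transcript length, the order of the 8 genes in WT testes was Amhr2 with a mean of 125 ± 2.01 TPM (SD, n = 3), Inha with 74.3 ± 11.8, Inhbb with 9.08 ± 0.26, Kitl with 6.16 ± 0.34, Amh with 2.38 ± 0.65, Fshr with 1.495 ± 0.33, Gdnf with 0.62 ± 0.02 and Inhba with 0.27 ± 0.24. Among neighbours in this order, the samples of Amh and Fshr did not overlap by a narrow margin, the lowest Amh value being 1.88 and the highest Fshr value 1.82. In ΔIBB/ΔIBB testes Amh, with 8.93 ± 0.39 TPM, overlapped with Kitl, with 9.15 ± 0.17, and the rest of the order was the same.

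Set against each other, the mutant lines differed in 6 of the 7 genes tested, all higher in ΔIBB/ΔIBB testes, against a background of 30.3% of 18752 genes in either direction and 13.5% higher. The log2 fold change of ΔIBB/ΔIBB against Kpna6-/- was 1.20 for Amh (adjusted P = 9.55e-06), 1.05 for Fshr (9.04e-05), 0.59 for Inha (1.55e-05), 0.39 for Amhr2 (5.76e-05), 0.38 for Inhbb (0.00137) and 0.21 for Kitl (0.0105). For Gdnf it was 0.07 (-0.54 to 0.68, adjusted P = 0.877). Without ΔIBB/ΔIBB replicate 3 the number of genes called was still 6 in each comparison of that line. In Kpna6-/- against WT, 5 of the 7 genes tested, namely Amh, Amhr2, Inha, Inhbb and Kitl, had every Kpna6-/- sample above every WT sample, as did 10.2% of all genes tested. The comparisons share samples, so their values for a gene are not independent of each other.

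Marker lists of the cell types of the testis were read against the same background. All 12 Sertoli cell markers rose in ΔIBB/ΔIBB testes, with a median log2 fold change of 0.66 and a summed level of 2393 to 2835 TPM against 1371 to 1565 in WT. The study measured Rhox5, Wt1, Clu, Gata1 and Cldn11 of this list by quantitative PCR of adult testes, scaled to Gapdh. It reported a change only for Cldn3, which is not on the list. In Kpna6-/- testes 4 of the 12, Clu, Aard, Cst9 and Cst12, rose, against 0.889% of all genes tested, and none fell. The list median was 0.28 there and the summed level was 1762 to 1913 TPM. All 6 round spermatid and all 6 elongating spermatid markers fell in ΔIBB/ΔIBB testes, with medians of -0.48 and -0.37, and none of either list passed the test in Kpna6-/- testes. In RNA of whole testes, more cells of a type in the sample, fewer cells of other types and more RNA per cell cannot be told apart. The study counted fewer Sertoli cells per tubule in adults of both mutant lines, and fewer round spermatids. How these counts bear on the marker values was not tested. Macrophage markers rose in ΔIBB/ΔIBB testes in 3 of 6 cases and peritubular myoid markers in 4 of 6, with 1 of the latter lower. In 3 further lists the share called was below the 36.6% of all genes, with 1 of 5 endothelial markers and 2 of 6 pachytene spermatocyte markers lower and 1 of 6 spermatogonial markers higher, as it was for the Leydig cell list. The part of these lists in the results was not tested, beyond the comparison with the Sertoli cell markers that follows.

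Each gene was therefore also set against the mean log2 CPM of the 12 Sertoli cell markers in the same testis. The marker mean was 0.69 higher in ΔIBB/ΔIBB and 0.29 higher in Kpna6-/- than in WT testes on the log2 scale. Relative to it, Amh was higher by 1.10, Fshr by 0.66 and Inha by 0.53 in ΔIBB/ΔIBB than in WT testes, each without overlap between the groups. For Amhr2 the difference was 0.13, and the lowest ΔIBB/ΔIBB sample, at 2.182, barely cleared the highest WT sample, at 2.181. Inhbb differed by -0.10, and the groups overlapped. The relative levels of Kitl and Gdnf were lower than in WT, by -0.30 and -0.83, again without overlap. In Kpna6-/- testes the relative values of Inha and Amhr2 were 0.34 and 0.14 higher and those of Gdnf and Kitl differed by -0.59 and -0.12 from WT, without overlap, whereas Fshr, at 0.01, Amh, at 0.30, and Inhbb, at -0.08, overlapped. Without Kpna6-/- replicate 3 the relative difference of Gdnf was -0.25. With the median of the markers in place of their mean, Kitl in Kpna6-/- testes was 0.03 higher. A two-sided exact permutation test gave P = 0.1, the lowest it can reach here, for each difference without overlap, and 0.162 after adjustment over 21 tests, so none of the relative differences could pass a threshold of 0.05. Between the lines the relative level of Amhr2 differed by -0.003 (exact permutation test, P = 1.0), whereas those of Amh and Fshr were 0.80 and 0.65 higher in ΔIBB/ΔIBB testes (P = 0.1).

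**Figure D4:**
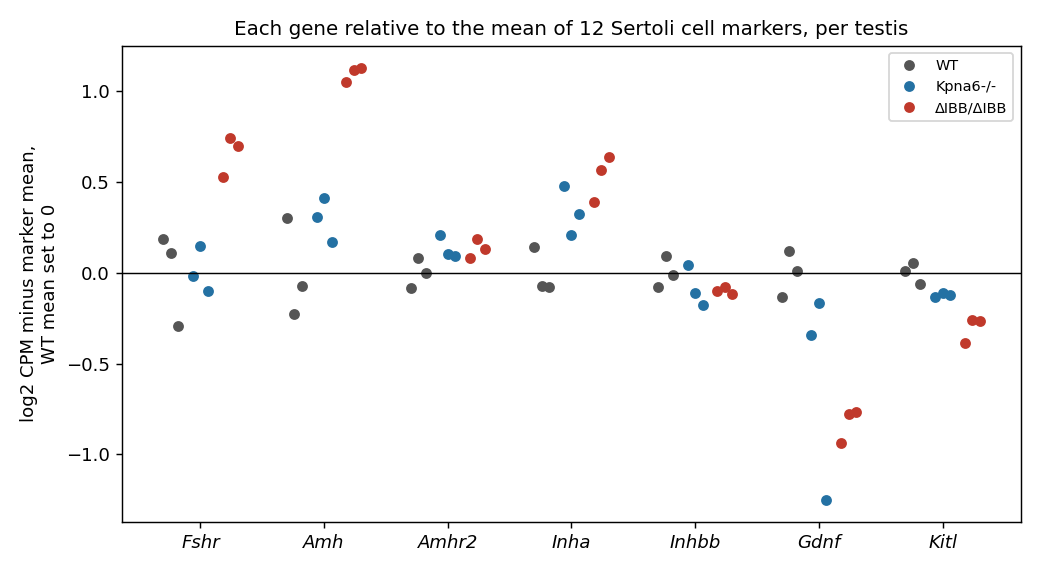
Log2 CPM of each of the 7 genes minus the mean log2 CPM of 12 Sertoli cell markers in the same testis, with the WT mean of each gene set to 0 (vertical axis) and points for samples. Amh, Fshr and Inha of ΔIBB/ΔIBB testes lie above WT, by 1.10, 0.66 and 0.53 on average, Amhr2 and Inhbb lie near 0, and Kitl and Gdnf lie below.

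Over the 9 testes the log2 CPM values of the 6 genes that rose ran together, with Pearson's r between 0.918 and 0.973 for each pair, and Gdnf had r between -0.188 and 0.034 with them. These values are descriptive, since the 9 samples fall into 3 groups and share each library's composition. Among 16301 other genes with a mean of at least 1 TPM, the 3 most like Amh in this measure were G6pdx (r = 0.997), Slc4a3 and Nxnl2 (0.991 each). Those most like Fshr were Mcf2 (0.994), Smarca1 and Sft2d2 (0.993 each), and those most like Inha were Gnas (0.991), Cnpy2 and Rtl8a (0.988 each). For Amhr2 they were Itm2c (0.993), Necap2 and Ldhb (0.992 each), for Inhbb Tubb3 (0.994), Acsl4 (0.992) and Atp6v0c (0.991), and for Kitl Klhl5, Ppm1m (0.987 each) and Zfp182 (0.985). The genes closest to Gdnf, Gm7958 (0.97), C330018D20Rik (0.968) and Fam131c (0.95), were less like it.

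Of 72 genes on 6 lists of partners and targets of these hormones, 69 were tested. In ΔIBB/ΔIBB against WT 24 rose and 4 fell, with a median log2 fold change of 0.16, and in Kpna6-/- against WT 1 rose and 1 fell, with a median of 0.011. Without ΔIBB/ΔIBB replicate 3 the former counts were 21 and 4. In Kpna6-/- testes 1.45% of the list genes were higher and 1.45% lower, which is 1 gene each. Of all genes tested in that comparison, 1.6% were called in either direction and 0.889% were higher. The share of 28 of 69 genes called in ΔIBB/ΔIBB testes was near the background of 36.6%, but its direction was not, since 34.8% of the list genes were higher and 5.8% lower, against 17.7% and 18.9% of all genes tested.

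Downstream of the FSH receptor, 5 of 19 genes rose and 1 fell in ΔIBB/ΔIBB testes, with a list median of 0.17. The share called was below the 36.6% of all genes tested, and the share that rose was above 17.7%. Gnas, which encodes the stimulatory G protein α subunit, had 105.1, 92.7 and 96.8 normalized CPM in WT, 139.8, 144.4 and 138.0 in ΔIBB/ΔIBB and 120.7, 117.8 and 116.7 in Kpna6-/- testes. It stood in the same order as Inha, without overlap between the groups, and its log2 fold change was 0.52 (adjusted P = 3.74e-05) in ΔIBB/ΔIBB and 0.27 (adjusted P = 0.0217) in Kpna6-/- testes. Gnai2, an inhibitory G protein subunit, rose by 0.38 and the adenylate cyclase gene Adcy9 by 0.43 (adjusted P = 0.000336 and 0.00625). The other cyclase genes listed, Adcy3 and Adcy6, had log2 fold changes of 0.16 and 0.26 (adjusted P = 0.321 and 0.146). Prkar2a, a regulatory subunit of protein kinase A, fell by 0.58 on the log2 scale, from 224.5 to 246.8 normalized CPM in WT to 150.9 to 162.1 in ΔIBB/ΔIBB testes (adjusted P = 1.73e-05), while Kpna6-/- testes had 239.7 to 254.1. Of its other subunits, the catalytic Prkacb rose by 0.22 (adjusted P = 0.0476), and Prkaca, Prkar1a and Prkar2b had log2 fold changes of 0.095, 0.03 and 0.025 and did not pass the test.

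Of 11 genes of the AMH arm, 2 rose, near the 17.7% of all genes tested that were higher, and none fell. They were the target genes Id3, by 0.58, and Id2, by 0.39 on the log2 scale (adjusted P = 0.0133 and 0.0478). The target gene Id1 had a log2 fold change of 0.07 (adjusted P = 0.877), which was also the list median. The type I receptors that pair with AMHR2, Bmpr1a and Acvr1, had log2 fold changes of 0.05 (adjusted P = 0.581) and 0.19 (adjusted P = 0.464) in ΔIBB/ΔIBB testes. Of 14 genes of the activin and inhibin arm 11 were tested. Against 17.7% of all genes tested that were higher, 5 of these rose. They included the signal transducers Smad3, by 0.77 (adjusted P = 0.000917), and Smad2, by 0.25 (0.0197), the inhibitor Smad7, by 0.49 (0.0219), and Tgfbr3, the co-receptor betaglycan that gives inhibin its grip on activin receptors, by 0.27 (0.0447). The activin receptors Acvr2a, Acvr2b and Acvr1b had log2 fold changes of -0.10, 0.09 and -0.06 and Tgfbr3l, the inhibin B co-receptor, of -0.10, none past the test. In Kpna6-/- testes no gene of these arms was called.

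Among 9 genes of the GDNF arm, Gfra1, the GDNF co-receptor of undifferentiated spermatogonia, was the gene that fell in both lines. It had 12.8, 13.4 and 13.7 normalized CPM in WT, 8.31, 8.87 and 10.8 in ΔIBB/ΔIBB and 10.2, 8.08 and 10.7 in Kpna6-/- testes. All mutant samples lay below all WT samples, and the lines overlapped. Gfra1 fell by 0.50 (adjusted P = 0.00412) in ΔIBB/ΔIBB and by 0.47 (adjusted P = 0.0476) in Kpna6-/- against WT on the log2 scale. The Kpna6-/- call of Gfra1 was lost with the replicate number as a block (adjusted P = 0.0566), with all 9 samples in 1 fit (0.0714), with library size only (0.0538), in limma on log2(TPM + 1) (0.323), and in each fit without WT replicate 2 or 3 or a Kpna6-/- sample. In limma on this scale the ΔIBB/ΔIBB call of Gfra1 was lost too (0.0635). The Kpna6-/- call of Gnas was lost in limma and in the same fits with a sample left out, and was made in the other settings. Eomes, a transcription factor of a subset of GFRA1-positive spermatogonia, fell by 1.92 on the log2 scale in ΔIBB/ΔIBB testes (adjusted P = 0.00132), from 27 to 35 estimated counts per WT sample to 5 to 12. In Kpna6-/- testes its log2 fold change was -0.91 (adjusted P = 0.252). Ret, the signalling receptor, had log2 fold changes of 0.006 (adjusted P = 0.984) and -0.48 (adjusted P = 0.298), and Etv5, a GDNF target also made by Sertoli cells, rose by 0.34 in ΔIBB/ΔIBB testes (adjusted P = 0.00683). The rest of the list, Etv4, Bcl6b, Id4, Lhx1 and Pou3f1, lay between -0.18 and 0.01 there, and none passed the test. The list median was -0.09.

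Of 13 genes of the KIT arm 5 rose and 1 fell in ΔIBB/ΔIBB testes, against 17.7% and 18.9% of all genes tested. Kit itself had 22.9, 27.0 and 27.8 normalized CPM in WT, 28.9, 32.0 and 33.8 in ΔIBB/ΔIBB and 23.6, 20.9 and 23.4 in Kpna6-/- testes. The ΔIBB/ΔIBB samples lay above all others, and the log2 fold change was 0.29 (adjusted P = 0.0206) against WT and 0.48 (adjusted P = 0.000455) against Kpna6-/- testes, whereas Kpna6-/- against WT gave -0.20 (adjusted P = 0.285). The adaptor Grb2, the kinase Fyn and the phosphatase Ptpn11, which also serve other receptors, rose by 0.60, 0.52 and 0.46 (adjusted P = 0.00011, 0.000432 and 0.000354).

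Against 17.7% of all genes tested, 6 of 7 transcription regulators known to act on these hormone genes rose in ΔIBB/ΔIBB testes. They included Nr0b1 by 0.61 and Dmrt1 by 0.41 (adjusted P = 0.000231 and 0.000455), Gata4 by 0.46 and Sox8 by 0.54 (0.000764 and 0.0011), and Nr5a1 by 0.37 (0.0014), while Creb1 had a log2 fold change of -0.04 (adjusted P = 0.703). Their list median, 0.41, was lower than that of the 12 Sertoli cell markers, 0.66, and no regulator was called in Kpna6-/- testes. Nr5a1, which activates Amh in Sertoli cells, had a log2 fold change of 0.23 there with an adjusted P of 0.0545.

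**Figure D5:**
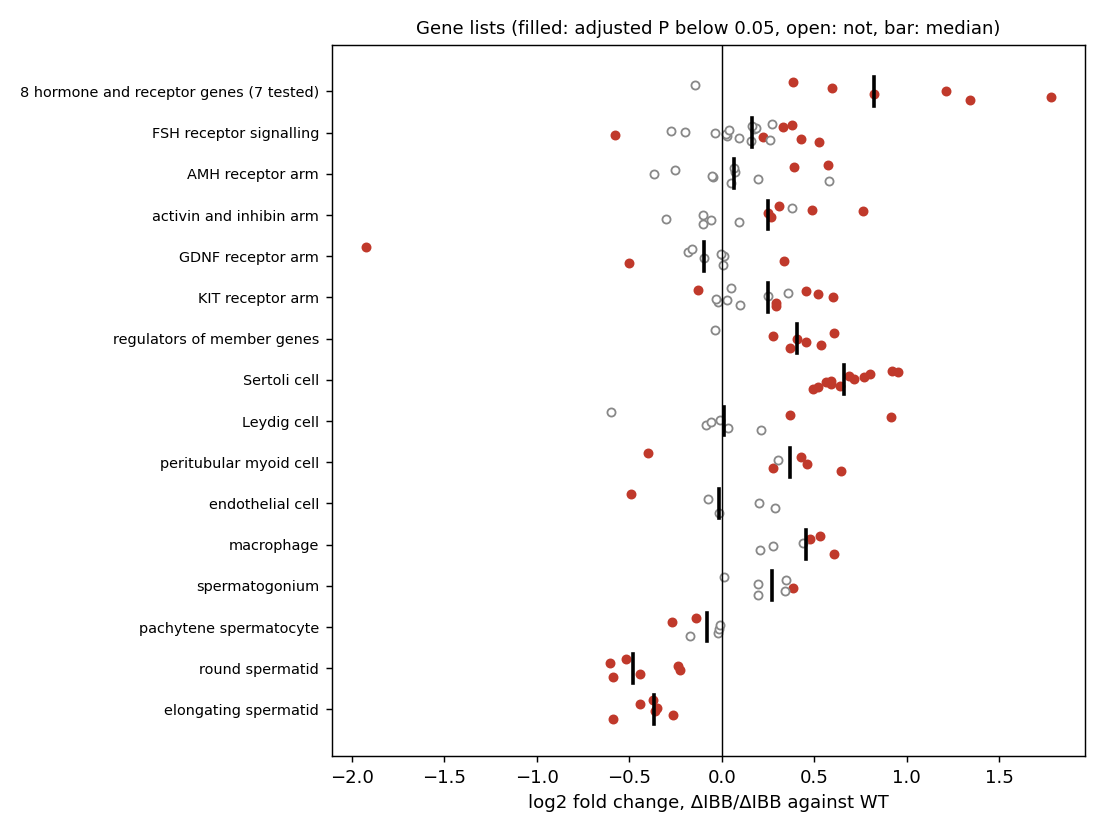
Log2 fold change in ΔIBB/ΔIBB against WT testes (horizontal axis) of each gene tested on the hormone, pathway and cell marker lists (vertical axis), filled where the adjusted P was below 0.05, with a bar for the list median. The hormone and receptor genes have a median of 0.83 and the Sertoli cell markers of 0.66, the 6 pathway lists lie between -0.09 and 0.41, and the spermatid lists lie below 0.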

How the data were processed

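RNA of 9 whole testes was sequenced after poly(A) selection. Per the labels, the authors assigned reads to mm10 transcripts with kallisto 0.45, whereas the methods of the study name another version. The authors deposited, for each of 96626 transcripts, an estimated count, not normalized between samples, and a TPM value. Which release of transcripts they used is not given in the sources used here. Of the transcripts, 95301 were assigned to 32035 genes with GENCODE (GRCm38), and values were summed per gene. Rounded counts of the 6 samples of each comparison entered edgeR 4.0.16 (filterByExpr, TMM factors, glmQLFit and glmQLFTest), and P-values were adjusted by Benjamini-Hochberg over all genes tested. A gene was called at an adjusted P below 0.05. Normalized CPM values use the TMM factors of all 9 samples. Alternatives used DESeq2 1.42.0 and limma 3.58.1, and the procedure was tested on simulated data. The hormone and pathway genes and the marker lists were chosen with earlier results of these data known. The receptors and co-receptors Acvr2a, Acvr2b, Acvr1b, Bmpr1a, Acvr1, Tgfbr3, Tgfbr3l, Ret, Gfra1 and Kit were named whatever their result, as were up to 4 called genes of each other list by smallest P, and the 3 genes most like each member by Pearson's r. Lcn5, Insl3, Nr5a1, Creb1, Id1, Adcy3, Adcy6, Rhox5, Wt1, Gata1 and Cldn11 were named after their values were seen. So were Etv4, Bcl6b, Id4, Lhx1, Pou3f1 and the protein kinase A subunits other than Prkar2a. The labels describe each sample as testis of a mouse, and P-values measure the spread between these samples. A blastn 2.17.0 search of the reference transcripts, at 95% identity over at least 100 bases, found no other gene that shares sequence with the 8 genes. Promoters are from RefSeq.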

Additional observations from a re-analysis of the deposited data

How the results depend on the processing

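In ΔIBB/ΔIBB testes the number of hormone and receptor genes called was 6 under all 13 alternatives in each comparison, among them DESeq2, no filter on low counts and each sample left out in turn. In Kpna6-/- against WT it was 2, and 1 with limma on log2(TPM + 1) or log2(TPM + 0.1), and between 1 and 3 with a sample left out. The number of pathway genes called in this comparison was 2, and it was 3 with DESeq2 or no filter, 1 with the replicate number as a block, with all 9 samples in 1 fit or with library size as the only scaling, 0 with limma on either scale, and between 0 and 4 with a sample left out. The block changed no call of the 8 hormone and receptor genes, and of the pathway genes in Kpna6-/- testes Gfra1 lost its call under it (adjusted P of 0.0566). Samples with the same replicate number did not deviate together over all genes tested (correlations of -0.056 to 0.073). No pairing by number was visible, but a weak one, or one in few genes, would not be seen this way. The call of Inha in Kpna6-/- testes was lost in limma (adjusted P of 0.128 and 0.134) and without Kpna6-/- replicate 1. Gfra1 also lost its call with all 9 samples in 1 fit and with library size only, where Gnas kept it, and neither was called in limma or in a fit that left out WT replicate 2 or 3 or a Kpna6-/- sample. With a sample left out, the log2 fold change of Gdnf lay between -0.466 and 0.048 in Kpna6-/- against WT and between -0.202 and 0.316 in ΔIBB/ΔIBB against Kpna6-/- testes, and in both it changed sign without Kpna6-/- replicate 3. The difference of -3.2 percentage points in the Kitl exon share between ΔIBB/ΔIBB and WT testes became -0.19 as a share of estimated counts and 1.26 among complete coding transcripts, the latter chosen after seeing the data. Relative to the Sertoli cell markers, Fshr and Amh were higher by 0.29 and 0.80 in ΔIBB/ΔIBB than in WT testes on the log2(TPM + 1) scale, which compresses low values. Of all genes called in ΔIBB/ΔIBB against WT, 48.4% were higher, and 70.0% with library size only or 70.8% with limma on log2(TPM + 1), and of the pathway genes 31 rose and 3 fell with library size only. In ΔIBB/ΔIBB against Kpna6-/- testes the share of higher calls was 44.5%, and 71.0% and 74.0% under these settings. In Kpna6-/- against WT 166 genes were called higher and 133 lower, 15 and 17 with limma on log2(TPM + 1), 254 and 223 with DESeq2, 349 and 275 without the filter, and 49 and 43 without Kpna6-/- replicate 1. The causes of these differences were not tested. Inhba, Gdnf, Fshr and Amh rest on few counts, which limits what could be detected for them.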
